A study of Homo sapiens with 6 samples.

Results

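The beta-catenin destruction complex and the LRP co-receptors were described here across 6 RNA-Seq libraries of MDA-MB-231 cells, a triple-negative human breast cancer cell line. The genes were chosen by name: CTNNB1, APC, AXIN1, AXIN2, GSK3A, GSK3B, CSNK1A1, LRP5, LRP6 and BTRC, 10 of the 57445 rows of the expression table. The rule used no values, but earlier results of these data were known when it was set. All 10 reached at least 1 TPM (transcripts per 1000000, a share of all transcripts scaled for their length) in at least 3 libraries and were among the 16554 genes tested. The control cells (shCTL, 3 libraries) carried a pGIPZ lentiviral vector that the design text describes as a non-sense control shRNA and the sample labels as an empty vector. The knockdown cells (shRor1, 3 libraries) carried a pGIPZ vector with an shRNA against ROR1, a receptor of the non-canonical Wnt branch. Both groups were kept under stable selection with 2 µg/ml puromycin, and the labels name no added Wnt ligand. The header of the control columns holds the word DMSO, a common solvent, and that of the knockdown columns does not. No label explains it, and a solvent given to control cells alone cannot be told apart from the knockdown here. Only 1 shRNA sequence was given for ROR1, and whether the resistant cells were pools or clones was not given in the sources used here.

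In canonical Wnt signaling, beta-catenin is held at a low level by a complex in which axin and APC form the scaffold, casein kinase 1 alpha and GSK3 phosphorylate beta-catenin, and the F-box protein encoded by BTRC hands it to a ubiquitin ligase. A Wnt ligand bound to a Frizzled receptor and to LRP5 or LRP6 draws axin to the membrane, the complex stops marking beta-catenin, and beta-catenin enters the nucleus and activates TCF/LEF target genes. AXIN2 is itself such a target and acts as a feedback inhibitor. Most of this regulation acts on proteins, which RNA-Seq does not measure.

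The stretch of beta-catenin on which its kinases and the BTRC protein act is encoded in CTNNB1. It is shown because CSNK1A1, GSK3A, GSK3B and BTRC encode the proteins that phosphorylate or bind these few residues, while axin, APC and the co-receptors act elsewhere. It lies in exon 3 of 15 of CTNNB1, in the coding sequence, at chr3:41266097-41266138 on the plus strand of GRCh37, and covers codons 32 to 45. Capitals mark the codons of serine 33, serine 37, threonine 41 and serine 45. The last is the site of casein kinase 1 alpha, the others are GSK3 sites, and serine 33 and serine 37 lie in the motif bound by the BTRC protein.
CTNNB1 codons 32 to 45: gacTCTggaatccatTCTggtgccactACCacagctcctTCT

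The targeted gene was examined first. In the shCTL libraries, ROR1 stood at 15.42, 13.49 and 20.56 TPM. In the shRor1 libraries, it stood at 9.34, 11.93 and 14.85 TPM. The shRor1 mean was 73% of the control mean (12.04 ± 2.76 against 16.5 ± 3.65 TPM, SD, n = 3 each), and the ranges overlapped, since the highest shRor1 library exceeded the lowest shCTL library. The log2 fold change was -0.43 (95% interval -0.88 to 0.03) and did not pass the test across all genes (limma, adjusted p = 0.984). Depth could not be read from TPM. Between 16036 and 17033 genes reached 1 TPM per library, most in the third library of each group. The 10 markers listed for MDA-MB-231 cells, such as VIM and CAV1, all reached 1 TPM in all 6 libraries. Of the 12 luminal markers, 9 did so, with KRT8 and KRT18 the highest, while the hormone receptor genes ESR1 (0.10 to 0.21 TPM) and PGR (0 to 0.01 TPM) were at or near 0. The smallest p values among the markers belonged to LOX (log2 fold change 0.40) and ZEB1 (0.08) for MDA-MB-231 cells and to CDH1 and XBP1 (0.13) in the luminal list, none under 0.05. The summed luminal markers ran from 1149.82 to 1312.67 TPM in shCTL and from 1064.38 to 1304.73 TPM in shRor1 libraries, and those of MDA-MB-231 cells from 4500.19 to 4697.7 and from 4554.98 to 4920.33 TPM. In bulk libraries, fewer cells with a transcript and less transcript per cell cannot be told apart.

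None of the 10 members passed the test between shRor1 and shCTL cells, which was also true of the other genes tested (0% of 16554 genes had an adjusted p under 0.05). At an unadjusted p under 0.05, again 0 of 10 members were counted, against 2.85% of all genes tested. The TPM ranges of the groups overlapped for all 10 members, whereas 7.78% of all genes tested had ranges that did not overlap. The median log2 fold change of the members was 0.02, beside 0.05 over all genes tested. By sign, 7 members lay above 0 and 3 below, beside 67.0% of all genes above 0. This split depended on the scaling: 5 members lay above 0 after quantile normalization (50.5% of all genes) and 3 after median ratio scaling (50.2%). The 95% intervals of 9 members stayed within -0.34 to 0.47 on the log2 scale, and the interval of LRP5 was wider.

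**Figure D1:**
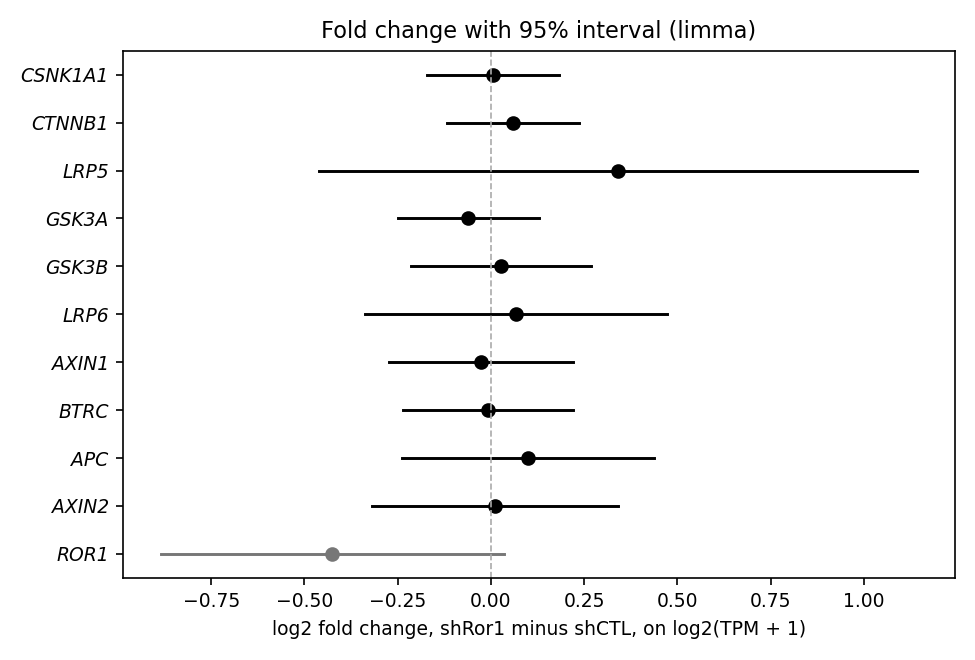
Log2 fold change (shRor1 minus shCTL, on log2(TPM + 1)) on the horizontal axis for the 10 members and, in gray, ROR1, with points for the limma estimate and lines for its 95% interval. All intervals include 0, and the widest is that of LRP5, from -0.46 to 1.14.

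The transcript levels of the members were very different. Over all 6 libraries, CSNK1A1 (207 ± 10.8 TPM, SD, n = 6) and CTNNB1 (187 ± 10.8 TPM) stood at the top. The next pair, LRP5 (57.6 ± 24.1 TPM) and GSK3A (52.7 ± 3.07 TPM), lay clearly below, with no overlap between CTNNB1 and LRP5. Below these came GSK3B (26.1 ± 2.14 TPM), LRP6 (24.3 ± 4.35 TPM), AXIN1 (17.2 ± 1.37 TPM), BTRC (15.8 ± 0.971 TPM) and APC (13.8 ± 1.96 TPM). AXIN2 was the lowest at 2.44 ± 0.303 TPM. In 4 places, neighbors in this order did not overlap: CTNNB1 over LRP5, GSK3A over GSK3B, LRP6 over AXIN1 and APC over AXIN2, each seen in 6 of 6 libraries. The neighbors CSNK1A1 and CTNNB1, LRP5 and GSK3A, GSK3B and LRP6, AXIN1 and BTRC, and BTRC and APC overlapped in their ranges. LRP5 exceeded GSK3A in only 3 of 6 libraries, and AXIN1 exceeded BTRC in 3 of 6.

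**Figure D2:**
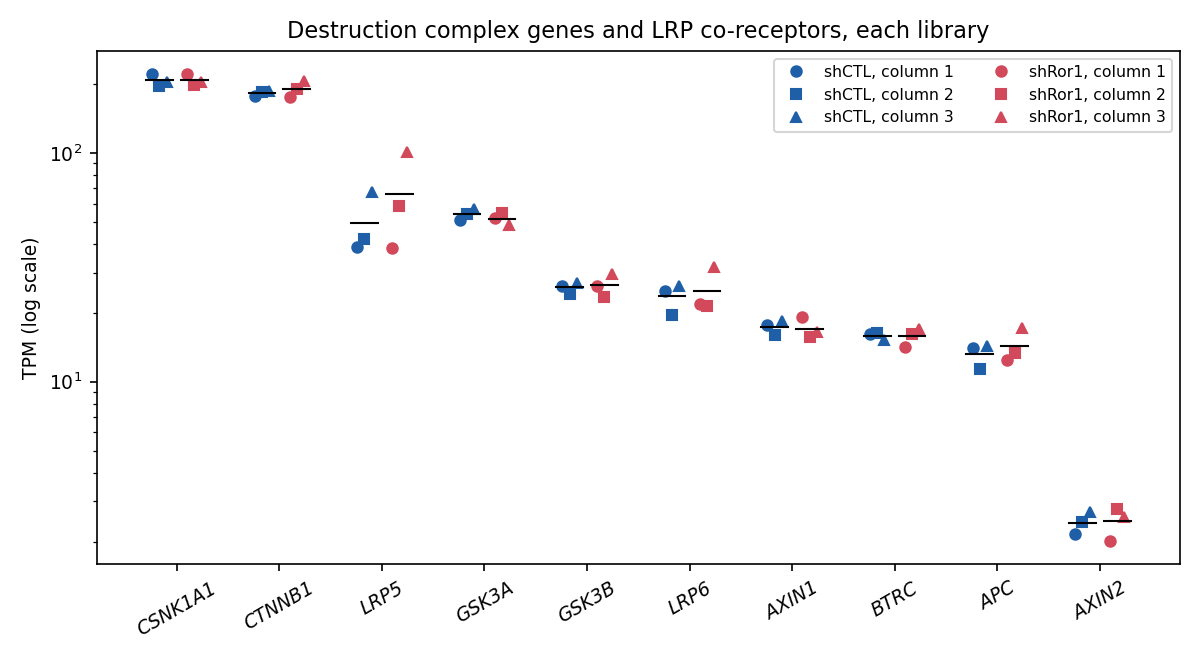
TPM on a log axis for each of the 10 members, ordered by mean level, with 1 point per library (blue shCTL, red shRor1, marker shape for the column of the table) and a line at the group mean. The groups overlap for every member, and the points of LRP5 spread from 38.42 to 100.59 TPM.

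Beta-catenin is both the substrate of the complex and its output, and its gene CTNNB1 (chr3:41236232-41301587, plus strand, on GRCh37 like all gene positions that follow) was among the most abundant members. The shCTL libraries held 176.63, 184.02 and 186.8 TPM. The shRor1 libraries held 175.68, 190.77 and 205.16 TPM. The lowest and the highest value both belonged to shRor1 libraries, and the control values lay between them. The log2 fold change was 0.06 (SE 0.08, 95% interval -0.12 to 0.24, limma adjusted p = 0.984). Its sign was not stable to scaling, with -0.0012 after median ratio scaling. The residual SD of CTNNB1 about the group means was smaller than that of most genes: 16.1% of all genes tested varied less, and 31.6% of the 648 genes with a similar mean level.

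The scaffold proteins bring the kinases to beta-catenin. APC (chr5:112043215-112181936, plus strand), a tumor suppressor and scaffold, stood at 14.05, 11.34 and 14.28 TPM in the shCTL libraries. The shRor1 libraries held 12.47, 13.32 and 17.1 TPM of APC. The groups overlapped, with the highest value in the third shRor1 library and the lowest in the second shCTL library (log2 fold change 0.10, SE 0.15, 95% interval -0.24 to 0.44, adjusted p = 0.984). AXIN1 (chr16:337440-402723, minus strand), the constitutive axin, stood at 17.64, 16.07 and 18.43 TPM in control cells. In knockdown cells, it stood at 19.08, 15.63 and 16.53 TPM. Its highest and lowest value were both found in shRor1 libraries, and the group means were 17.4 ± 1.2 and 17.1 ± 1.79 TPM (log2 fold change -0.03, 95% interval -0.27 to 0.22, adjusted p = 0.987). APC and AXIN2 share 230 and 1316 exon bases on their own strand with genes that stood at 0.385 and 0.0133 TPM.

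AXIN2 (chr17:63524681-63557766, minus strand) is the feedback axin and a widely used readout of canonical signaling. Its shCTL values were 2.15, 2.43 and 2.69 TPM. Its shRor1 values were 2.02, 2.79 and 2.56 TPM. The groups overlapped fully, and the log2 fold change was 0.01 (SE 0.14, 95% interval -0.32 to 0.34, adjusted p = 0.995), with a sign that turned to -0.084 after quantile normalization. Differences within this interval could not be told from 0 with these libraries. At this low level, log2(TPM + 1) understates a change in TPM, so the interval is wider in TPM terms. The ratio of AXIN2 to AXIN1 within a library, which does not depend on the TPM total, was 0.140 ± 0.0156 in shCTL and 0.146 ± 0.0370 in shRor1 cells (SD, n = 3 each). The log2 difference of 0.04 did not pass an exact permutation test (two-sided p = 0.8, and 0.8 after adjustment over the 3 ratios examined). With 3 libraries against 3, this test cannot go below 0.1.

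The kinases were covered by 3 genes. CSNK1A1 (chr5:148872545-148931034, minus strand) encodes casein kinase 1 alpha, which primes beta-catenin for GSK3. Control libraries held 220.75, 196.37 and 204.09 TPM. Knockdown libraries held 220.85, 198.77 and 203.82 TPM. The values of both groups covered nearly the same range, and the means were 207 ± 12.5 and 208 ± 11.6 TPM (log2 fold change 0.01, 95% interval -0.17 to 0.18, adjusted p = 0.995). On the same strand, 4194 exon bases of CSNK1A1 are shared with the long non-coding gene ENSG00000230551, which stood at a mean of 24.8 TPM, and short reads from the shared bases cannot be assigned with certainty to either gene. With both genes summed, an alternative chosen after seeing the data, the log2 fold change of CSNK1A1 was 0.03. The retrogene CSNK1A1L and the pseudogene CSNK1A1P1 were at 0.02 TPM or less and at 0.02 to 0.13 TPM, respectively.

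GSK3A (chr19:42730377-42746777, minus strand) and GSK3B (chr3:119540168-119813841, minus strand) encode the closely related kinases that phosphorylate primed beta-catenin. GSK3A stood at 50.63, 54.07 and 56.77 TPM in shCTL libraries. It stood at 52.02, 54.53 and 48.17 TPM in shRor1 libraries. The means were 53.8 ± 3.08 and 51.6 ± 3.20 TPM, and the log2 fold change of -0.06 (95% interval -0.25 to 0.13, adjusted p = 0.984) was the lowest among the members. GSK3A shares 479 exon bases on its own strand with ENSG00000268643 (mean 10.2 TPM), and the log2 fold change was -0.03 with both genes summed. On the opposite strand, 197 exon bases of GSK3A overlap ZNF526 (mean 9.003 TPM) and 29 of GSK3B overlap GSK3B-DT (2.55 TPM), and whether strand was used in counting was not given in the sources used here. GSK3B stood at 26.28, 24.21 and 27.05 TPM in control libraries. In shRor1 libraries, GSK3B stood at 26.18, 23.55 and 29.55 TPM. Its groups overlapped, with the lowest and highest value both in shRor1 libraries (log2 fold change 0.03, 95% interval -0.21 to 0.27, adjusted p = 0.987, and -0.032 after median ratio scaling). GSK3B reached 0.481 ± 0.0359 of the GSK3A level in shCTL and 0.516 ± 0.0915 in shRor1 cells (exact permutation p = 0.7, adjusted 0.8). Summed, both kinases together held 79.7 ± 3.66 and 78.0 ± 0.250 TPM.

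BTRC (chr10:103113790-103317078, plus strand) encodes the F-box protein that recognizes the phosphorylated residues printed above. Its control values were 16.1, 16.29 and 15.14 TPM. Its knockdown values were 14.23, 16.18 and 16.96 TPM. The group means were nearly identical at 15.8 ± 0.616 and 15.8 ± 1.41 TPM (log2 fold change -0.01, 95% interval -0.24 to 0.22, adjusted p = 0.995). CTNNB1 transcripts outnumbered BTRC transcripts 11.5 ± 0.714 to 1 in shCTL and 12.1 ± 0.278 to 1 in shRor1 cells.

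LRP5 (chr11:68080059-68216743, plus strand) and LRP6 (chr12:12268959-12419978, minus strand) are the co-receptors that take the Wnt signal to axin. LRP5 stood at 38.65, 42.21 and 67.4 TPM in the shCTL libraries. In the shRor1 libraries it stood at 38.42, 58.37 and 100.59 TPM. The third library was the highest in each group, and the lowest shRor1 value was below all control values, so that the group ranges overlapped widely. The means were 49.4 ± 15.7 and 65.8 ± 31.7 TPM, and the log2 fold change of 0.34 (SE 0.34, 95% interval -0.46 to 1.14) did not pass the test (unadjusted p = 0.353, adjusted p = 0.984, exact permutation p = 0.7). This value moved with the libraries included: without the third shRor1 library the log2 fold change was -0.017, and without the first shRor1 library it was 0.67. It was 0.19 without the first shCTL library and 0.58 without the third, and none of these values passed the threshold.

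LRP6 stood at 24.98, 19.56 and 26.2 TPM in control cells. In shRor1 cells, it stood at 21.96, 21.32 and 31.63 TPM. The third shRor1 library was the highest of all 6 and the second shCTL library the lowest. The log2 fold change was 0.07 (SE 0.17, 95% interval -0.34 to 0.47, adjusted p = 0.987), and -0.11 without the third shRor1 library. The level of LRP6 was 0.499 ± 0.133 of that of LRP5 in shCTL and 0.417 ± 0.136 in shRor1 libraries (log2 difference -0.28, exact permutation p = 0.4, adjusted 0.8). LRP5 was the more abundant co-receptor in 6 of 6 libraries. LRP5L, a partial copy of LRP5 whose reads could be mistaken for it, stood at 3.36 ± 0.445 and 3.57 ± 0.408 TPM.

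LRP5 differed from the other members in its spread. Its highest library stood 2.62 times above its lowest, whereas CTNNB1 reached a factor of 1.17. The residual SD of LRP5 was 0.57 on the log2 scale, larger than in 97.4% of all genes tested and larger than in 99.5% of the 2116 genes with a similar mean level (within 0.5 on the log2 scale). LRP6 followed with a residual SD of 0.26, above 81.6% of all genes tested and 90.5% of genes of its level. The remaining members ranged from 0.08 for CSNK1A1 to 0.20 for APC. By position, the third shRor1 library held the highest value for 6 of 10 members (APC, BTRC, CTNNB1, GSK3B, LRP5 and LRP6), beside 35.1% of all genes tested. The first shRor1 library held the lowest value for 4 members (AXIN2, BTRC, CTNNB1 and LRP5), beside 13.3% of all genes. The third shRor1 library also had the most genes at 1 TPM or more (17033), and the part of this in the LRP5 level was not tested.

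**Figure D3:**
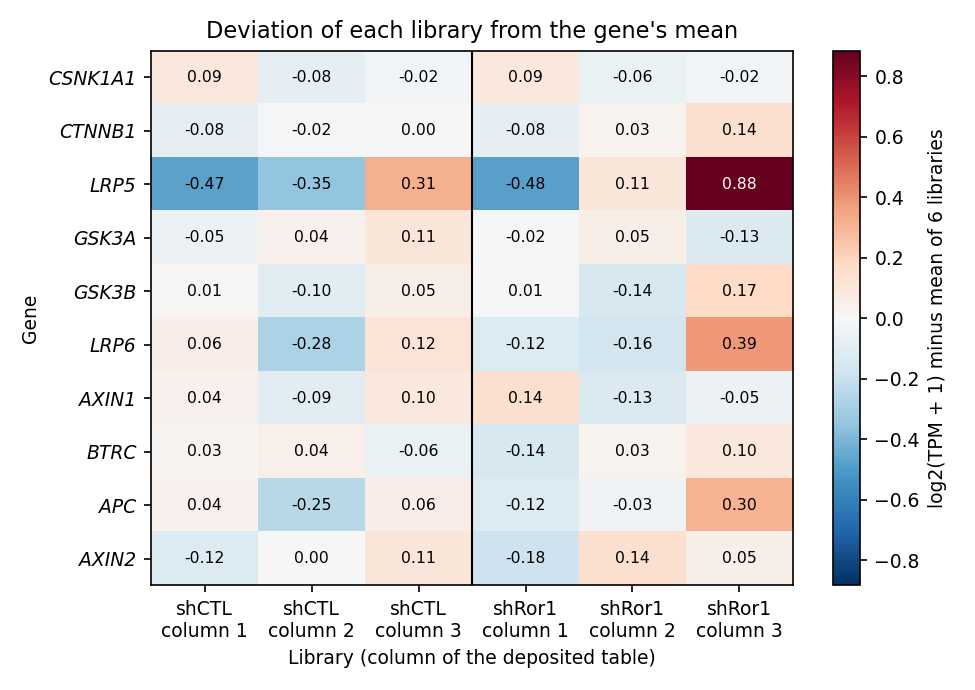
Deviation of each library (columns, named by group and column of the table) from the mean of 6 libraries for each member (rows), in log2(TPM + 1), with the value written in each cell. LRP5 runs from -0.48 in the first shRor1 library to 0.88 in the third, and most other cells lie close to 0.

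Across the 6 libraries, some members varied alike. These correlations are descriptions over 6 points that share library preparation and the TPM total. The highest Pearson r among all pairs of members were 0.967 for APC and LRP6, 0.946 for CTNNB1 and LRP5, and 0.927 for GSK3B and LRP6. The strongest opposite pairs were AXIN2 with CSNK1A1 (-0.842) and AXIN1 with BTRC (-0.824). Many genes of the table reached an r of at least 0.9 with the members counted. These were 984 genes (5.94% of those tested) with CTNNB1, 184 genes (1.11%) with AXIN2 and 1477 genes (8.92%) with LRP5. No such count was made for the other members or for negative r. Closest to CTNNB1 were RWDD2B (0.997), FAM220A (0.995) and ITGB3 (0.994). Closest to AXIN2 were PIM2 (0.988), RP5-1024G6.8 (0.986) and DUSP11 (0.984). For LRP5, which was picked for this comparison after its values were seen, they were TCAF1, MARCKSL1 and SLC2A12, the last a glucose transporter gene.

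Transcript ratios described the make-up of the complex within a library. There were 5.22 to 6.17 CTNNB1 transcripts for each transcript of APC, AXIN1 and AXIN2 together, with means of 5.55 ± 0.531 in shCTL and 5.64 ± 0.390 in shRor1 cells. For each axin transcript, there were 4.03 ± 0.180 and 4.01 ± 0.272 GSK3 transcripts. CSNK1A1 and CTNNB1 were close to parity, with ratios of 1.14 ± 0.0989 and 1.10 ± 0.140. All of these ranges overlapped between the groups. LRP5 and LRP6 together ran from 60.38 to 132.2 TPM and were the least even of these sums. These are ratios of RNA and give no protein stoichiometry.

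The remaining genes of the pathway were grouped by their role in 5 lists. No listed gene passed the test across all genes, and of the 64 listed genes tested, with close copies of the members included and each gene counted in 1 place, 1 had an unadjusted p under 0.05 (2.85% of all genes tested) and 4 had ranges that did not overlap (7.78% of all genes tested). The signs given for each list stand beside 67.0% of all genes above 0, and the list medians moved with the scaling. Among 20 partners and regulators of the complex, all were tested, 13 lay above and 7 below 0, and the median log2 fold change was 0.04, or -0.0055 after quantile normalization. Protein phosphatase 2A, which removes phosphates within the complex, was the most abundant of them, with the catalytic subunit PPP2CA at 277 ± 20.2 and 270 ± 17.4 TPM. Its scaffold subunit PPP2R1A stood at 190, 199.88 and 194.61 TPM in control libraries. Its knockdown values were 187.72, 184.38 and 184.14 TPM. These were the only ranges of the list without overlap, with a log2 fold change of -0.07 (adjusted p = 0.984). The regulatory subunit PPP2R5B (5.69 ± 0.696 and 7.15 ± 1.12 TPM, log2 fold change 0.28) and RNF146, a ubiquitin ligase for axin (26.4 ± 2.33 and 29.99 ± 2.66 TPM, 0.18), had the smallest p values of the list, neither under 0.05. APC2, the paralogue of APC, stood at 2.37 ± 0.184 and 2.34 ± 0.251 TPM.

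Of the 10 genes of the ubiquitin ligase, 7 lay above and 3 below 0, with a median of 0.02 (0.0085 after quantile normalization). NEDD8, the modifier of cullins, was at 501 ± 30.1 and 502 ± 44.4 TPM, and the adaptor SKP1 at 480 ± 10.1 and 487 ± 29.5 TPM. Both stood above the F-box genes, BTRC and its paralogue FBXW11, the latter at 44.4 ± 1.68 and 46.7 ± 5.13 TPM. The RING subunit RBX1 had the smallest p of this list (56.0 ± 3.32 and 48.9 ± 6.61 TPM, log2 fold change -0.20, unadjusted p = 0.107), followed by the conjugating enzyme UBE2D1 (23.8 ± 2.29 and 25.6 ± 4.06 TPM, 0.09).

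A further 18 genes were listed for folding, phosphorylation, inhibition or traffic of the co-receptors, though not all, such as WIF1 and DKK3, are established to act on them directly. Of these 18, 13 were tested, 11 lay above and 2 below 0, and the median was 0.09, or 0.022 after quantile normalization. DKK1, a secreted inhibitor of LRP5 and LRP6, was highly expressed and even, at 329 ± 4.49 and 333 ± 12.6 TPM. The chaperone gene LRPAP1 stood at 121 ± 4.52 and 117 ± 2.89 TPM. CAPRIN2, whose protein binds LRP6 and promotes its phosphorylation, stood at 33.94, 30.18 and 35.91 TPM in control libraries and had 38.3, 37.83 and 41.98 TPM in knockdown libraries. It was the listed gene with an unadjusted p under 0.05, and all shRor1 values lay above the control values (log2 fold change 0.24, SE 0.09, unadjusted p = 0.0348, adjusted p = 0.984). The ranges of ATP6AP2, which links LRP6 to the vacuolar proton pump, did not overlap either (41.9 ± 1.13 and 44.9 ± 1.59 TPM, log2 fold change 0.10, adjusted p = 0.984). The Wnt antagonist genes DKK4, SOST and WIF1 were at 0.05 TPM or less in every library.

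Of 18 beta-catenin partners, 14 were tested, with 11 above and 3 below 0 and a median of 0.04 (0.0090 after quantile normalization). CTNNA1, encoding the alpha-catenin that ties the cadherin complex to actin, stood at 288 ± 20.2 and 293 ± 23.2 TPM, and the p120 catenin gene CTNND1 at 54.0 ± 5.71 and 58.8 ± 10.4 TPM. E-cadherin (CDH1), the main epithelial partner, was close to the limit of testing. CDH1 had 1.01, 0.8 and 1.22 TPM in control libraries and 1.36, 1.41 and 1.47 TPM in knockdown libraries, without overlap (log2 fold change 0.27, unadjusted p = 0.085, adjusted p = 0.984). Its shRor1 mean was 139.9% of the control mean in TPM, a difference that log2(TPM + 1) understates at this level. The nuclear cofactor gene PYGO2 stood at 18.9 ± 2.15 and 21.1 ± 0.774 TPM (0.15). The genes JUP and LGR4 were looked at after their values were seen, because their spread resembled that of LRP5. JUP, encoding gamma-catenin, had 5.85, 8.55 and 18.03 TPM in control libraries and 5.66, 12.96 and 29.72 TPM in knockdown libraries, and its r with LRP5 was 0.989 over 6 libraries. LGR4, encoding an R-spondin receptor that keeps co-receptors at the membrane, ran from 13.06 to 29.65 TPM, with an r of 0.881 with LRP5. A high r followed from the way JUP and LGR4 were picked, and 1477 genes (8.92% of those tested) had an r of at least 0.9 with LRP5.

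Canonical Wnt target genes other than AXIN2 gave an even split. Of 17 listed, 10 were tested, 5 lay above and 5 below 0, and the median was -0.002 (-0.0098 after quantile normalization). Cyclin D1 (CCND1) stood at 226 ± 16.3 and 229 ± 25.0 TPM. BMP4 (35.8 ± 7.75 and 38.5 ± 4.48 TPM, log2 fold change 0.11) and TCF7 (4.23 ± 0.240 and 3.91 ± 0.700 TPM, -0.10) had the smallest p values, and the smallest was 0.485. Targets often used as readouts in other tissues, such as NKD1, LGR5, NOTUM and RNF43, stayed under 1 TPM in all libraries.

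**Figure D4:**
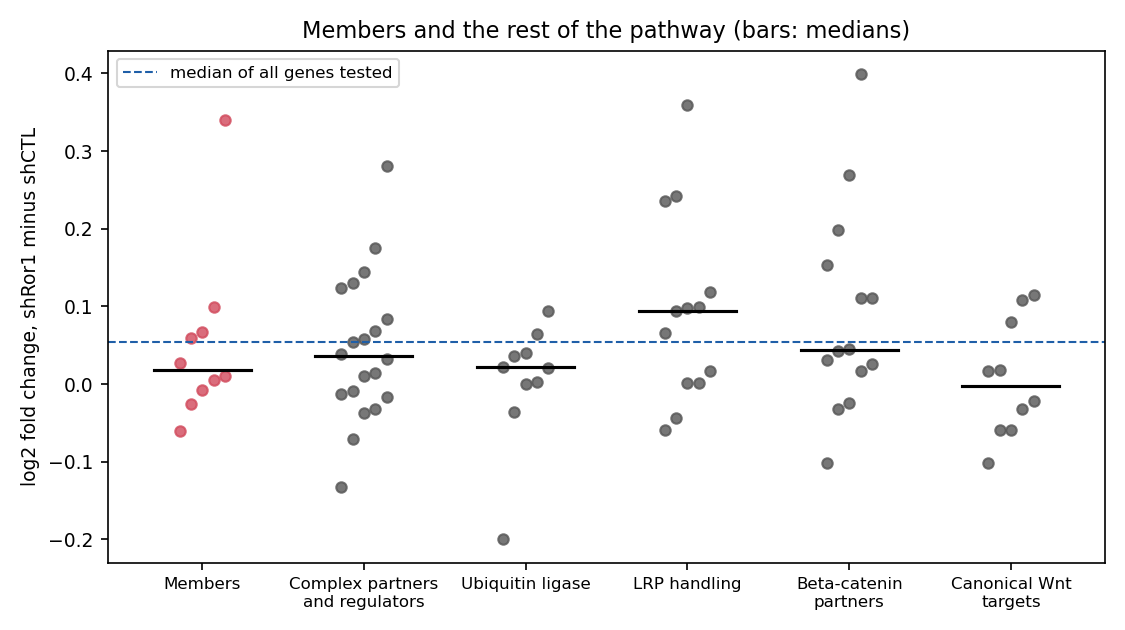
Log2 fold change (shRor1 minus shCTL, on log2(TPM + 1)) of the 10 members in red and of the tested genes of 5 pathway lists in gray, with black bars at the median of each list and a dashed line at the median of all genes tested, 0.05. The list medians lie between -0.002 and 0.09, and no gene shown passed the test across all genes.

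The promoters of the members were compared with those of other genes for TCF/LEF motifs. RefSeq windows of 250 bases before to 50 bases after the start (GRCh38.p14) were matched for 7 of 10 members, in 9 windows, with none for AXIN2, LRP6 and BTRC. The TCF word CTTTG followed by 2 bases that were each A or T, searched on both strands, occurred in 0 of the 9 windows, beside 13.75% of all 35116 windows. This states only that these letters are missing from these windows. The words are mostly A and T, whereas G and C made up 40.0% to 86.67% of the member windows. The share over all windows was not matched for base composition. The LRP5 window (chr11:68312341-68312640, plus strand, GRCh38.p14) is shown because LRP5 was the member that varied most. Capitals mark its 52 CpG dinucleotides, more than in 99.2% of all windows, where the median was 14. Members that varied less had many CpG as well, such as AXIN1 (44, more than in 95.8% of windows) and CTNNB1 (39, 91.3%). The lowest counts were 14 in a window of APC and 10 in a window of CSNK1A1.
LRP5 promoter: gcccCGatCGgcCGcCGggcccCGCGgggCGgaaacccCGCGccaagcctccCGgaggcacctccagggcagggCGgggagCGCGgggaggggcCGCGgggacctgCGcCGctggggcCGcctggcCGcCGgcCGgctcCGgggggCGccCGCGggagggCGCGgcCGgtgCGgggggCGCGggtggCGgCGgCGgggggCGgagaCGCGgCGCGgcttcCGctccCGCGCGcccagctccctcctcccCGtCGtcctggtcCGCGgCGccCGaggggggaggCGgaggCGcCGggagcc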

How the data were processed

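Gene expression was measured by RNA-Seq in 6 libraries of MDA-MB-231 cells, 3 shCTL and 3 shRor1. Libraries were made with a TruSeq Stranded kit from 1000 ng of RNA (given as total RNA in the protocol and as polyA RNA in the sample labels) and sequenced as single reads of 50 bases. The submitters' processing notes name CASAVA 1.8.2, FastQC 0.10.0, STAR, RSEM 1.2.5, edgeR and the build GRCh37, and the methods name Ensembl 73. The strand setting used for RSEM was not given in the sources used here. The deposited table holds TPM per gene as estimated by the authors, although its name speaks of expected counts. The values have 2 decimals and add up to 1000000 per column within rounding. TPM is scaled for transcript length and library total, so depth cannot be recovered from these values and no counting error is given. The study lists mapped library sizes, which were not used here because they could not be tied to columns. The columns carry 1 header per condition and no replicate number, so an ordinal before "library" in the text names only the order of columns. No source states that libraries came from separate cultures, so p-values measure the spread between libraries, which may be technical.

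The paper named only AGR2 and a gene for an uncharacterized protein as significant between these groups. Its western blots, which measure protein, showed the ROR1 knockdown and no effect on canonical Wnt signaling. For RNA, the authors applied edgeR to counts. Because the values were TPM, limma 3.58.1 (R 4.3.3) with a mean-variance trend was fitted instead to log2(TPM + 1) of the 16554 genes that reached 1 TPM in 3 or more libraries, with Benjamini-Hochberg adjustment over all of them and a threshold of 0.05. Fold changes on this scale understate the change of low genes. Ratios and single genes were examined with exact two-sided permutation tests in scipy 1.17.1. The fit was tested on simulated data with independent noise for each gene and library, so variation shared by many genes was not covered. Symbols came from the Ensembl identifiers (55022 of 57445 matched), gene positions and exon overlaps from GENCODE 44 mapped to GRCh37, and promoters from RefSeq. Members and lists were chosen with earlier results of these data known. Named genes were all members, ROR1, close copies of members, the 2 highest and the 2 smallest-p genes of each list, and the 3 genes most correlated with CTNNB1 and AXIN2. Genes named outside this rule, after their values were seen, were JUP, LGR4, the genes closest to LRP5, RPL39P3, genes that share exons with members, and genes given only for levels near 0 (ESR1, PGR, DKK4, SOST, WIF1, NKD1, LGR5, NOTUM and RNF43). Alternatives changed the scaling, pseudocount, filter, variance model or the libraries included.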

Additional observations from a re-analysis of the deposited data

How the results depend on the processing

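No paired analysis was possible because no replicate number is attached to any column. Over 14 alternative fits of all genes, the count of genes past the adjusted threshold stayed at 0 in all but 1: leaving out 1 library at a time gave 0 to 1, the exception being the ribosomal protein pseudogene RPL39P3 without the third shRor1 library (named after its values were seen). The number of genes with an unadjusted p under 0.05 was 472, and ran from 227 (mean of at least 5 TPM) to 1363 (no filter), and from 278 to 1720 with a library left out. The adjusted p of the members stayed between 0.504 and 1. GSK3A kept its sign in all 15 alternatives run for it, with -0.12 after median ratio scaling, and each of the other 9 members reversed in at least 1. Alternatives that changed only the filter or the model of gene variance left the fold changes as they were and could not reverse a sign. After median ratio scaling, the log2 fold change was -0.0012 for CTNNB1, -0.033 for AXIN2, -0.032 for GSK3B and -0.055 for CSNK1A1. After quantile normalization, it was -0.084 for AXIN2 and -0.025 for GSK3B, and with array weights -0.019 for CSNK1A1. Leaving out 1 library at a time, the log2 fold change ran from 0.005 to 0.12 for CTNNB1, -0.028 to 0.19 for APC, -0.10 to 0.032 for AXIN1, -0.059 to 0.10 for AXIN2, -0.10 to -0.013 for GSK3A, -0.054 to 0.10 for GSK3B, -0.039 to 0.052 for CSNK1A1, -0.017 to 0.67 for LRP5, -0.11 to 0.17 for LRP6, -0.058 to 0.061 for BTRC and -0.58 to -0.26 for ROR1. In the same way, the log2 difference of the ratios ran from -0.53 to -0.07 for LRP6 to LRP5, -0.043 to 0.21 for GSK3B to GSK3A and -0.12 to 0.26 for AXIN2 to AXIN1. The median over the members ran from -0.032 to 0.083 over all alternatives. Of the members, 7 lay above 0 (67.0% of all genes tested), against 2 without the third shRor1 library (58.7% of all genes) and 5 without the second shCTL library (59.6%). The share of all genes above 0 was 50.5% after quantile normalization and 50.2% after median ratio scaling. The cause of these differences was not tested.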
